A study of Homo sapiens with 35 samples.

Results

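Cells detect foreign or misplaced RNA in the cytosol with a small set of proteins, and the RNA levels of 9 genes for such sensors and the adaptors behind them were examined here: DDX58, IFIH1, DHX58, TLR3, EIF2AK2, ADAR, MAVS, TMEM173 and IRF3. The 9 were taken by name from a table of 28503 genes, and all of them were listed, quantified in each of the 6 RNA-seq libraries and kept by the filter on low counts. The libraries came from DU145 cells, a prostate cancer line that was established long ago from a metastasis in the brain. Its cells carried a short hairpin RNA (shRNA) against luciferase as the control, against ZMYND8, or against JARID1D, with 2 libraries in each group, so every group, the control included, carried a hairpin. ZMYND8 binds histone H3 that carries certain methyl and acetyl groups, and JARID1D is a histone demethylase that acts on H3K4 and is encoded by KDM5D, a gene of the Y chromosome. No time after the start of the knockdown, hairpin sequence or number of hairpins per target was found in the labels, so each knockdown is known only as 1 group of 2 libraries. The other 29 of the 35 samples of the series, chromatin immunoprecipitations and inputs, were not analysed here.

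DDX58 (now named RIGI) and IFIH1 (MDA5) are RNA helicases that bind double-stranded RNA in the cytosol and pass the signal to MAVS on the mitochondrial surface, from which the kinase TBK1 activates IRF3 and interferon genes are switched on. Interferon released by the cell then raises the level of several of the sensors, among them DDX58 and IFIH1, so the pathway can feed back on itself. TLR3 detects double-stranded RNA in endosomes and signals through a different adaptor, TICAM1, and the kinase PKR, encoded by EIF2AK2, halts translation when it binds such RNA. ADAR edits double-stranded RNA and limits its detection, and TMEM173 (STING) serves the parallel pathway that detects DNA.

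The promoter windows of 4 genes are printed. These are the genes whose RNA differed between the groups and whose windows held a match to a motif that interferon-activated factors bind. The RNA of ADAR and MAVS also differed between groups, but their windows held no match and are not printed. Windows of 300 bases, from 250 before to 50 after the annotated start, were taken from RefSeq on the build GRCh38.p14, which held such windows for 6 of the 9 genes (not for DHX58, TMEM173 or IRF3). They were searched on both strands for the core of the interferon-stimulated response element (ISRE), GAAANNGAA, which 8.11% of all 35116 windows hold. They were also searched for the core of the gamma-activated sequence (GAS), TTCNNNGAA, which 7.66% hold. A shorter motif for interferon regulatory factors, AANNGAAA, which overlaps the ISRE core, was added after the data were seen and occurs in 22.8% of windows. Capitals mark the ISRE core in the first 3 sequences and the shorter motif in DDX58, each read 5′ to 3′ along the gene's strand.
IFIH1 (chr2:162318635-162318934, minus strand): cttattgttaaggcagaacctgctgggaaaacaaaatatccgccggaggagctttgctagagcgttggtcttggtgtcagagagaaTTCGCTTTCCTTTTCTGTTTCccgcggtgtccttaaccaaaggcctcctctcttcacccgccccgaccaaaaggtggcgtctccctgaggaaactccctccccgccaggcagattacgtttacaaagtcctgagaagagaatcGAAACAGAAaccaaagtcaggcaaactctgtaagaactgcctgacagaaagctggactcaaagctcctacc
TLR3 (chr4:186068906-186069205, plus strand): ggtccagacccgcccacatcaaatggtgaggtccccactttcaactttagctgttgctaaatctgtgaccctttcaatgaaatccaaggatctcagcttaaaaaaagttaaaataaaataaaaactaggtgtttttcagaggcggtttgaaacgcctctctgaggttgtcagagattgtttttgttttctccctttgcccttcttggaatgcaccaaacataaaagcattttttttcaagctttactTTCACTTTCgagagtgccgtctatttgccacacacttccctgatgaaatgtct
EIF2AK2 (chr2:37156931-37157230, minus strand): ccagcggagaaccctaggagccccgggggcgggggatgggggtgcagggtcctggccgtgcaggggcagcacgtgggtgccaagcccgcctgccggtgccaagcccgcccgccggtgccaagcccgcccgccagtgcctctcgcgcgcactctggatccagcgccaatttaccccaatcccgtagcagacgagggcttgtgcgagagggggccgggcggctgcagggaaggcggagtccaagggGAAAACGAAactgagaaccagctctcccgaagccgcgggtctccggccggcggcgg
DDX58 (chr9:32526147-32526446, minus strand): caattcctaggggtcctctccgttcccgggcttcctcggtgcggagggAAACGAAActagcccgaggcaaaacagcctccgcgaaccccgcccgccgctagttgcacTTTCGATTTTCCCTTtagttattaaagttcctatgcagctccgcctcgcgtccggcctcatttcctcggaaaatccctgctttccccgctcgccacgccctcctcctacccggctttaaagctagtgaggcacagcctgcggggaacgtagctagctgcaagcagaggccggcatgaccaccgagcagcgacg

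The window of IFIH1 held 4 matches to the ISRE core. In a row of 3, with first bases at -164, -158 and -152, each match overlaps the next. The other had its first base at -21, where -1 is the last base before the start. TLR3 held 1 match, at -3, and also 2 matches to the GAS core, at -178 and -50. EIF2AK2 held 1 match, at -6. The DDX58 window had no ISRE core but 3 matches to the shorter motif, of which the farthest from the start, AAACGAAA, had its first base at -202. None of these motifs was found in the 3 windows of ADAR or in the window of MAVS. A match is a description of the letters, and binding of any factor was not measured here.

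Deposited counts, which carry a scaling, summed to between 22925611 and 25001300 per library, which is 20.74 M to 27.44 M fragments once the scaling is undone, and 3 fragments, the most that a count of 0 allows, came to between 0.109 and 0.145 CPM, the unit used here for counts relative to the normalized library total. The lowest deposited count among the 9 genes was 64.1, for TLR3, so counting error was small beside the differences between libraries described below. The median chi-square per gene between the 2 libraries of a group was 4.74 in shLuciferase, 2.19 in shZMYND8 and 2.34 in shJARID1D, above the 0.455 of sampling noise. Whether the 2 libraries of a group were separate cultures is not stated in the labels, so the p-values rest on the spread between libraries alone, and that spread may be technical. ZMYND8 fell by 0.77 ± 0.13 on the log2 scale in shZMYND8 (adjusted p = 0.00491, and 0.0581 without shZMYND8 replicate 2). KDM5D fell by 1.67 ± 0.12 in shJARID1D (adjusted p = 0.000831). Unless another tool is named, an adjusted p is from the quasi-likelihood test of edgeR with Benjamini-Hochberg adjustment across the 15867 genes tested, ± gives the standard error of a log2 fold change, and a call means an adjusted p under 0.05. The columns of the deposited table call the ZMYND8 knockdown by another name, Rac7, which was read as ZMYND8 because an antibody label of the series gives RACK7 as its other name. These columns mark both knockdowns as KO, whereas the sample titles name hairpins. The RNA-seq control libraries are titled shControl. Summed epithelial markers (KRT8, KRT18, KRT19, EPCAM, CDH1) ran from 963 to 1860 CPM over the 6 libraries.

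**Figure D1:**
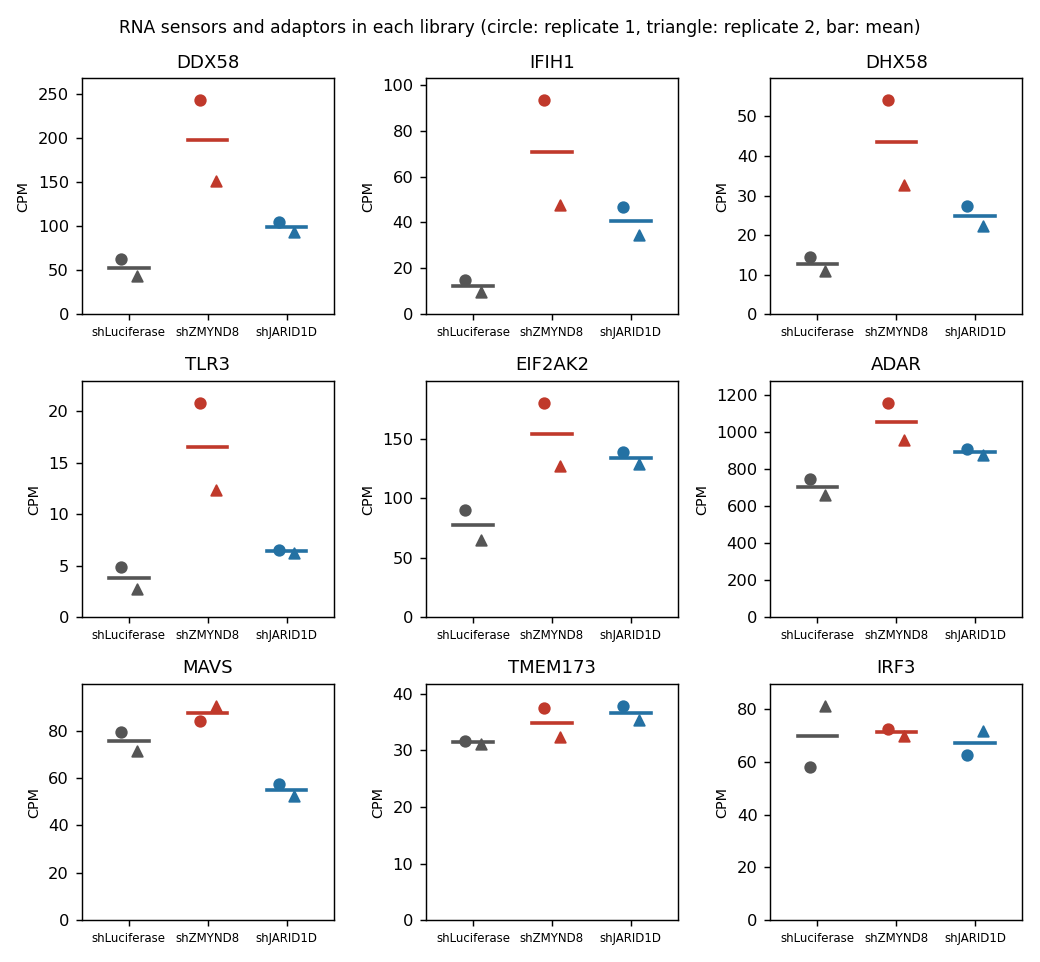
Normalized level (CPM, linear axis from 0) of each of the 9 genes in the 6 libraries, by group; circles are replicate 1, triangles replicate 2 and bars the mean. In DDX58, IFIH1, DHX58, TLR3 and ADAR both shJARID1D libraries lie between the shLuciferase and the shZMYND8 libraries, and in MAVS both shJARID1D libraries are the lowest.

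The comparison of shZMYND8 with shLuciferase asked whether the RNA of the sensors changes when the histone reader is lowered. The 3 RIG-I-like receptors, TLR3, EIF2AK2 and ADAR rose, that is 6 of the 9 genes, by between 50.3% for ADAR and 5.70-fold for IFIH1. The 2 adaptor genes MAVS and TMEM173 and the transcription factor gene IRF3 did not pass the test. Of all genes tested, 8.89% were called higher and 7.34% lower in this comparison. No sensor or adaptor was called lower by edgeR or by DESeq2, and none had an unadjusted p under 0.05 in that direction. The median log2 fold change of the 9 was 0.98, and that of all genes tested was -0.0052. In bulk RNA, more of a transcript in every cell and a high level in a part of the cells cannot be told apart.

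DDX58, the receptor that detects short double-stranded RNA with a 5′ triphosphate, stood at 62.3 and 43.5 CPM in the shLuciferase libraries and at 243 and 151 CPM in the shZMYND8 libraries. Both shZMYND8 libraries were well above both controls, and the groups did not overlap. The log2 fold change was 1.90 ± 0.23 (95% confidence interval 1.38 to 2.42, adjusted p = 0.00105), a 3.73-fold rise. 

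IFIH1, the receptor for long double-stranded RNA, had the largest fold change of the 9 in this comparison. Its levels were 15.0 and 9.72 CPM in shLuciferase and 93.4 and 47.7 CPM in shZMYND8. The replicates of the knockdown differed by a factor of 1.96, yet both lay well above both controls. Its log2 fold change was 2.51 ± 0.32 (95% confidence interval 1.80 to 3.22, adjusted p = 0.00116).

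DHX58 (LGP2), a helicase of the same family that lacks the signalling domain and modulates the other two, rose from 14.5 and 10.9 CPM to 54.2 and 32.8 CPM. This was a 3.43-fold rise (log2 1.78 ± 0.24, adjusted p = 0.00154). The endosomal receptor TLR3 rose from 4.90 and 2.74 CPM to 20.8 and 12.3 CPM. Its log2 fold change was 2.12 ± 0.30 (95% confidence interval 1.44 to 2.79, adjusted p = 0.00215). For all of DDX58, IFIH1, DHX58 and TLR3, the call held under each of the 16 alternative settings or left-out libraries tried.

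EIF2AK2, the gene of the kinase PKR, stood at 90.1 and 65.1 CPM in shLuciferase and at 180 and 127 CPM in shZMYND8, a 1.98-fold rise (log2 0.98 ± 0.19, adjusted p = 0.00827). ADAR, the editing enzyme, stood at 750 and 661 CPM in the controls and at 1160 and 956 CPM in shZMYND8. It rose by 50.3% (log2 0.59 ± 0.13, adjusted p = 0.0167). Both calls rested on shZMYND8 replicate 1: without it the log2 fold change was 0.71 for EIF2AK2 (adjusted p = 0.0897) and 0.44 for ADAR (adjusted p = 0.168). Of the genes that overlap these on RefSeq, GPATCH11 shares a stretch with EIF2AK2 and a long noncoding entry with ADAR. The labels do not say whether strand was used in counting, so a part of either value could belong to the neighbour. The same holds for DDX58, which overlaps 2 long noncoding entries, and for IRF3, which overlaps BCL2L12.

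MAVS, the mitochondrial adaptor of the RIG-I-like receptors, stood at 79.4 and 71.4 CPM in shLuciferase and at 84.1 and 90.5 CPM in shZMYND8. The libraries did not overlap, but the log2 difference of 0.21 ± 0.12 did not pass (95% confidence interval -0.05 to 0.48, adjusted p = 0.256). TMEM173, the STING adaptor, stood at 31.7 and 31.2 CPM against 37.5 and 32.3 CPM, with a log2 difference of 0.15 ± 0.13 (95% confidence interval -0.13 to 0.43, adjusted p = 0.454). IRF3, the factor activated at the end of both adaptor pathways, ran from 58.0 to 81.4 CPM in the controls, a range that contained both shZMYND8 libraries at 72.7 and 69.8 CPM. Its log2 difference was 0.03 ± 0.16 (95% confidence interval -0.33 to 0.39, adjusted p = 0.92). The intervals of these 3 genes end below a log2 fold change of 0.5, while those of the RIG-I-like receptors and TLR3 begin above 1. The libraries of the 2 groups did not overlap in 8 of the 9 genes, IRF3 being the exception, against 57.8% of all genes tested.

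**Figure D2:**
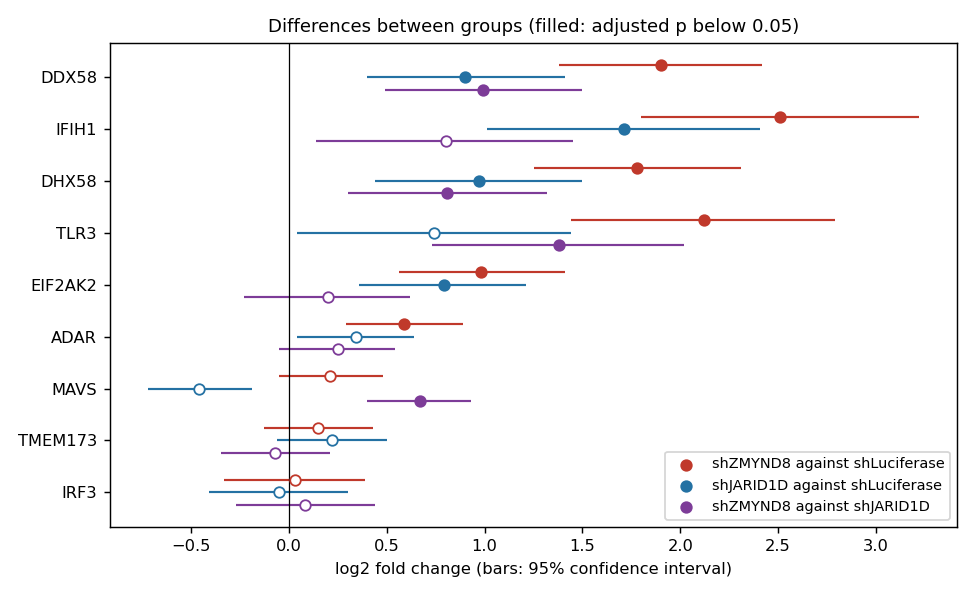
Log2 fold change of each gene (horizontal axis, points) with its 95% confidence interval (bars) in the 3 comparisons; filled points passed an adjusted p of 0.05. In shZMYND8 against shLuciferase the points fall from 2.51 for IFIH1 to 0.03 for IRF3, and MAVS has values of 0.21 in shZMYND8 and -0.46 in shJARID1D against the control.

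The comparison of shJARID1D with shLuciferase asked the same of the demethylase. DDX58, IFIH1, DHX58 and EIF2AK2 rose, 4 of the 9, where 2.96% of all genes tested were called higher and 2.79% lower. None was called lower by edgeR, although 1 gene, MAVS, had an unadjusted p under 0.05 in that direction and was called by DESeq2. The median log2 fold change of the 9 was 0.74, against 0.001 for all genes tested. This comparison uses the same control libraries as that of shZMYND8, so the values of the 2 are not independent.

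IFIH1 stood at 46.7 and 34.6 CPM in shJARID1D, 3.28-fold above the control (log2 1.71 ± 0.31, 95% confidence interval 1.01 to 2.41, adjusted p = 0.0191). DDX58 stood at 105 and 93.4 CPM, a log2 fold change of 0.90 ± 0.23 (95% confidence interval 0.40 to 1.41, adjusted p = 0.0488). DHX58 stood at 27.3 and 22.4 CPM, with a log2 fold change of 0.97 ± 0.24 (adjusted p = 0.0455). EIF2AK2 stood at 139 and 129 CPM, with a log2 fold change of 0.79 ± 0.19 (adjusted p = 0.044). In each of these 4 genes both knockdown libraries were above both controls.

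These 4 calls did not survive the loss of a library of the knockdown. All 4 were lost without either shJARID1D library, where the adjusted p ran from 0.128 to 0.246 without replicate 1 and from 0.0584 to 0.14 without replicate 2. The log2 fold changes then were 0.82 and 0.99 for DDX58, 1.48 and 1.91 for IFIH1, 0.82 and 1.11 for DHX58 and 0.74 and 0.84 for EIF2AK2, without replicate 1 and without replicate 2, and calls over all genes dropped from 912 to 16 and 22. They were also lost when no filter on low counts was applied. Without shLuciferase replicate 2, the control library in which all 4 genes were lowest, IFIH1 stayed past the threshold, and DDX58 (log2 0.67, adjusted p = 0.111), DHX58 (0.78, adjusted p = 0.104) and EIF2AK2 (0.57, adjusted p = 0.0916) did not. EIF2AK2 also missed the threshold without shZMYND8 replicate 2 (adjusted p = 0.0526), DDX58 with the scaling of relative log expression (adjusted p = 0.0502) and DHX58 with limma voom (adjusted p = 0.0592). The direction of the 4 was the same in every one of these alternatives.

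TLR3 stood at 6.51 and 6.26 CPM in shJARID1D, above both controls, with a log2 difference of 0.74 ± 0.31 that did not pass (95% confidence interval 0.04 to 1.44, adjusted p = 0.184). It passed without shLuciferase replicate 1 (log2 1.22, adjusted p = 0.0389), the control library with the higher TLR3 value, and with a replicate block (0.79, adjusted p = 0.0363). ADAR stood at 912 and 876 CPM, a log2 difference of 0.34 ± 0.13 (95% confidence interval 0.04 to 0.64, adjusted p = 0.159), and passed with the block (0.35, adjusted p = 0.0409).

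MAVS was the 1 gene of the 9 with lower values in both shJARID1D libraries than in both controls, at 57.5 and 52.3 CPM. The log2 difference of -0.46 ± 0.12 fell just short of the threshold (95% confidence interval -0.72 to -0.19, adjusted p = 0.0533). It passed with DESeq2 (-0.47, adjusted p = 0.017), with the replicate block (-0.46, adjusted p = 0.0234) and without shLuciferase replicate 2 (-0.53, adjusted p = 0.0253). TMEM173, at 37.9 and 35.3 CPM, differed by 0.22 ± 0.13 (95% confidence interval -0.06 to 0.50, adjusted p = 0.327). IRF3, at 62.7 and 71.7 CPM, differed by -0.05 ± 0.16 (95% confidence interval -0.41 to 0.30, adjusted p = 0.874). The groups did not overlap in 8 of the 9 genes, against 51.9% of all genes tested.

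**Figure D3:**
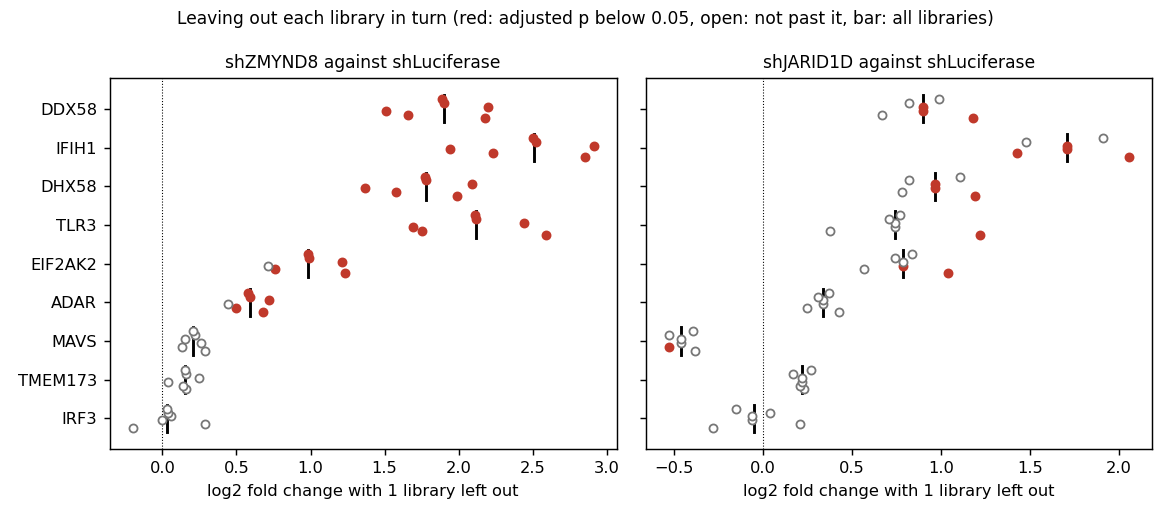
Log2 fold change of each gene with 1 of the 6 libraries left out (points, horizontal axis) beside the value with all libraries (black bar), in shZMYND8 (left panel) and shJARID1D (right panel) against shLuciferase; red points passed an adjusted p of 0.05. DDX58 in shZMYND8 stays between 1.51 and 2.20 and passes each time, whereas in shJARID1D it runs from 0.67 to 1.18 and does not pass in 3 of the 6.

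The direct comparison of the 2 knockdowns tested whether they differ. DDX58, DHX58, TLR3 and MAVS were higher in shZMYND8 than in shJARID1D, 4 of the 9, where 8.67% of all genes tested were called higher and 7.02% lower. No gene of the 9 was called lower by edgeR or DESeq2, and none had an unadjusted p under 0.05 in that direction. The libraries of the 2 groups did not overlap in 6 of the 9, against 65.4% of all genes tested, a share close to that background. The median log2 difference was 0.67 for the 9 and 0.001 for all genes tested.

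TLR3 differed most, at 2.59-fold (log2 1.38 ± 0.29, 95% confidence interval 0.73 to 2.02, adjusted p = 0.0136). DDX58 was 1.99-fold higher in shZMYND8 (log2 0.99 ± 0.23, adjusted p = 0.0186) and DHX58 1.75-fold (0.81 ± 0.23, adjusted p = 0.0408). IFIH1, with a log2 difference of 0.80 ± 0.29, did not pass (95% confidence interval 0.14 to 1.45, adjusted p = 0.0939) but did with the replicate block (0.74, adjusted p = 0.00299), in a fit of these 2 groups alone (0.80, adjusted p = 0.0423) and without either control library or shZMYND8 replicate 2. MAVS was 1.59-fold higher in shZMYND8 than in shJARID1D (log2 0.67 ± 0.12, 95% confidence interval 0.40 to 0.93, adjusted p = 0.00681).

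EIF2AK2 and ADAR were not shown to differ between the knockdowns. The log2 difference of EIF2AK2 was 0.20 ± 0.19 with a 95% confidence interval of -0.23 to 0.62 (adjusted p = 0.514), and that of ADAR 0.25 ± 0.13 with an interval of -0.05 to 0.54 (adjusted p = 0.241). TMEM173 (-0.07, adjusted p = 0.75) and IRF3 (0.08, adjusted p = 0.76) did not pass either. The calls between the knockdowns depended on which libraries were in the fit. Without shZMYND8 replicate 1 the log2 difference was 0.61 for DDX58 (adjusted p = 0.148), 0.40 for DHX58 (adjusted p = 0.324) and 0.95 for TLR3 (adjusted p = 0.129). Without a shJARID1D library these 3 also missed the threshold, with adjusted p from 0.0706 to 0.0979 without replicate 1 and from 0.0868 to 0.228 without replicate 2. Their log2 differences then were 1.08 and 0.91 for DDX58, 0.96 and 0.66 for DHX58 and 1.41 and 1.34 for TLR3, and calls over all genes dropped from 2490 to 627 and 632. MAVS missed it without shZMYND8 replicate 2 (0.61, adjusted p = 0.0763) and without shJARID1D replicate 2 (0.59, adjusted p = 0.0887). DHX58 also missed it with the scaling by upper quartile (adjusted p = 0.0506) or by library totals (adjusted p = 0.0562), and DDX58 (adjusted p = 0.0565) and DHX58 (adjusted p = 0.101) with no filter.

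The 6 libraries stood in 1 order in 5 of the 9 genes. In DDX58, IFIH1, DHX58, TLR3 and ADAR, shLuciferase replicate 2 was lowest, followed by shLuciferase replicate 1, shJARID1D replicate 2, shJARID1D replicate 1, shZMYND8 replicate 2 and shZMYND8 replicate 1. Within the shZMYND8 group, replicate 1 exceeded replicate 2 by a factor of 1.61 in DDX58, 1.96 in IFIH1, 1.65 in DHX58, 1.69 in TLR3, 1.42 in EIF2AK2 and 1.22 in ADAR. In MAVS it was lower than replicate 2, and IRF3 differed little between the 2. EIF2AK2 departed from the shared order in that shZMYND8 replicate 2, at 127 CPM, was below both shJARID1D libraries. The order in MAVS placed both shJARID1D libraries first and both shZMYND8 libraries last.

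Some sensors kept a constant ratio to DDX58 across the libraries and others did not. Relative to DDX58 in the same library, with the shLuciferase mean set to 0 on the log2 scale, DHX58 stayed between -0.15 and 0.12 in all 6 libraries. IFIH1 was higher relative to DDX58 in each knockdown library, at 0.73 and 0.44 in shZMYND8 and at 0.94 and 0.67 in shJARID1D. EIF2AK2 followed DDX58 in shJARID1D (-0.15 and -0.09) and fell behind it in shZMYND8 (-0.99 and -0.81). ADAR fell behind it in both, most in shZMYND8 (-1.50 and -1.09, against -0.63 and -0.53 in shJARID1D). TLR3 was at 0.28 and 0.21 in shZMYND8 and at -0.18 and -0.07 in shJARID1D, with the 2 controls at 0.16 and -0.16. These ratios compare changes, not levels between genes, and no test was made of them.

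**Figure D4:**
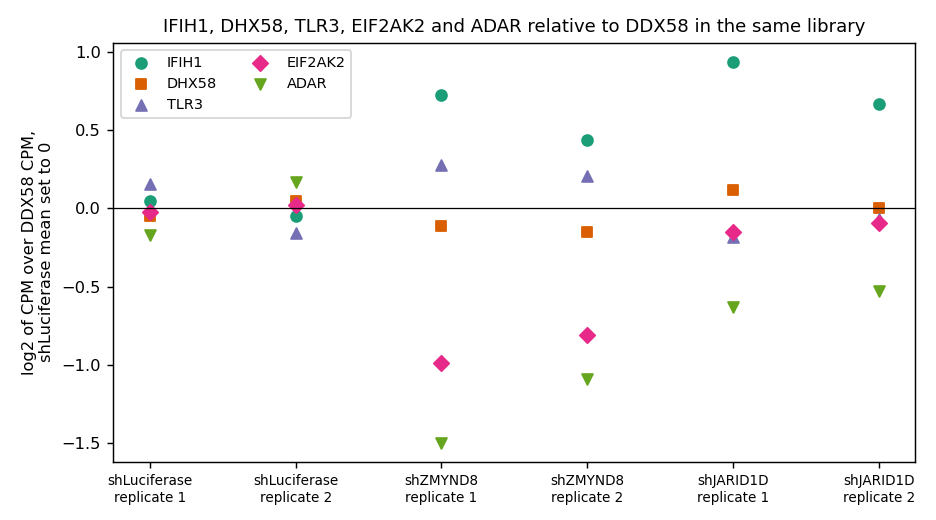
Log2 of the CPM of IFIH1, DHX58, TLR3, EIF2AK2 and ADAR over the CPM of DDX58 in the same library (vertical axis), with the mean of the 2 shLuciferase libraries set to 0, for each of the 6 libraries. DHX58 keeps within a range of 0.27, IFIH1 lies above 0 in all 4 knockdown libraries, and ADAR lies below 0 in all 4.

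The genes with the pattern most like that of a receptor were found among the 11476 genes whose mean was 5 CPM or more, by the root mean square difference of log2 CPM deviations over the 6 libraries, after each gene's own mean was taken off. For DDX58 the nearest were IFIT3, which encodes an interferon-induced antiviral protein, at 0.056, HERC6 at 0.086 and PARP14 at 0.097, and DHX58 itself ranked 3rd at 0.093. For DHX58 they were HERC6 at 0.051, UBE2L6, which encodes the conjugating enzyme of the ubiquitin-like protein ISG15, at 0.066 and PARP14 at 0.075. For IFIH1 they were OAS3 at 0.108, TRANK1 at 0.154 and IFIT1 at 0.163. IFIT3, as an example, stood at 201 and 131 CPM in shLuciferase, 772 and 488 CPM in shZMYND8 and 358 and 308 CPM in shJARID1D. MAVS, TMEM173 and IRF3 ranked between 2131 and 5530 among the 11476 in likeness to any of the 3 receptors. That is behind TLR3, EIF2AK2 and ADAR, at ranks from 11 to 505, but still nearer to the first than to the last of the 11476.

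Other parts of the pathway were described by lists of related genes. Their counts stand beside 8.89% of all genes tested called higher and 7.34% lower in shZMYND8. In shJARID1D these shares were 2.96% and 2.79%. These are shares of calls. No share of all genes tested was taken at an unadjusted p under 0.05, so counts at that threshold cannot be set against a background. Among 19 genes that activate signalling downstream of the RIG-I-like receptors and TLR3, 3 rose in shZMYND8 and none was called lower by edgeR, by DESeq2 or at an unadjusted p under 0.05. IRF7, an interferon regulatory factor that is itself induced by interferon, stood at 15.4 and 16.3 CPM in shLuciferase, 123 and 62.8 CPM in shZMYND8 and 65.3 and 56.6 CPM in shJARID1D. It rose in both knockdowns, by 2.56 ± 0.27 in shZMYND8 (adjusted p = 0.000601) and by 1.95 ± 0.27 in shJARID1D (adjusted p = 0.00805, and 0.0662 without shJARID1D replicate 1). TRIM25, the ubiquitin ligase that activates the product of DDX58, rose by 0.58 ± 0.12 in shZMYND8 (adjusted p = 0.00994) and was also higher there than in shJARID1D (0.55, adjusted p = 0.0141). Without shZMYND8 replicate 1 its adjusted p was 0.116 against the control, and without any one of the 4 knockdown libraries its adjusted p between the knockdowns ran from 0.0575 to 0.141. DDX60, a helicase linked to the same receptors, rose by 0.95 ± 0.27 in shZMYND8 (adjusted p = 0.0415). That call was lost with DESeq2 (0.137) and without shLuciferase replicate 2 (0.073), either shZMYND8 replicate (0.276 and 0.0705) or shJARID1D replicate 2 (0.0544). In shJARID1D IRF7 was the 1 of the 19 that edgeR called, whereas DESeq2 called 2 higher. None was called lower by edgeR or DESeq2, with 1 lower at an unadjusted p under 0.05.

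The kinases and adaptors between MAVS or TLR3 and IRF3 gave no call by edgeR in either knockdown. Over all 19 genes, 4 had an unadjusted p under 0.05 in each knockdown, most of them outside these kinases and adaptors. In shZMYND8 the 4 included TRIM25, DDX60 and IRF7. In shJARID1D they were IRF7, DDX60, IKBKE and, in the lower direction, DDX3X. TBK1 differed by -0.09 in shZMYND8 (adjusted p = 0.68) and by 0.03 in shJARID1D (adjusted p = 0.907). TICAM1, the adaptor of TLR3, differed by 0.23 (adjusted p = 0.45) and -0.07 (adjusted p = 0.863), and IKBKE, the kinase related to TBK1, by 0.37 (adjusted p = 0.198) and 0.60 (adjusted p = 0.0797). The median log2 fold change of the 19 genes was 0.13 in shZMYND8 and 0.05 in shJARID1D. Of 10 genes that inhibit the pathway, RNF125, a ubiquitin ligase that marks DDX58 and MAVS proteins for degradation, fell by 0.67 ± 0.19 in shZMYND8 (adjusted p = 0.0444) and was 2.20-fold lower there than in shJARID1D (adjusted p = 0.00543). Its call against the control was lost without every library but shLuciferase replicate 2, with adjusted p up to 0.257, and under 6 of the other alternatives. Between the knockdowns it was lost without shZMYND8 replicate 2 (0.0656) or shJARID1D replicate 1 (0.0512). The other 9 did not pass in any comparison. In shJARID1D none of the 10 was called by edgeR or DESeq2, and 4 had an unadjusted p under 0.05, 2 in each direction. The medians of the 10 were -0.09 in shZMYND8 and 0.10 in shJARID1D.

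The genes of the OAS family and of ZAP, whose products act against foreign RNA once it is detected, rose in shZMYND8, 5 of 5, with a median log2 fold change of 2.43. The share of all genes tested called higher was 8.89% in shZMYND8 and 2.96% in shJARID1D. OAS1, which makes a small messenger molecule when it binds double-stranded RNA, stood at 4.34 and 1.16 CPM in shLuciferase and at 122 and 39.8 CPM in shZMYND8 (log2 4.88 ± 0.61, adjusted p = 0.00111). OAS2 (4.25 ± 0.54), OAS3 (2.43 ± 0.28) and OASL (2.43 ± 0.27) also rose, as did ZC3HAV1, the gene of ZAP (0.62 ± 0.14, adjusted p = 0.0152). The call of ZC3HAV1 was lost without shZMYND8 replicate 1, at an adjusted p of 0.143. In shJARID1D the 4 OAS genes rose, by between 1.12 for OASL and 3.15 for OAS1 (adjusted p from 0.0161 to 0.0411), while ZC3HAV1 (0.21) did not pass. Without either shJARID1D library none of these 4 calls held. Between the knockdowns OAS1, OAS2 and OASL were higher in shZMYND8, with adjusted p of 0.0426, 0.0258 and 0.011, and each of these calls was lost without shZMYND8 replicate 1 (0.396, 0.23 and 0.0788) or without either shJARID1D library. The median of the 5 in shJARID1D was 1.57.

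The list of genes that bind, edit or process double-stranded RNA had few calls against shLuciferase. In shZMYND8 the share called lower was close to that of all genes tested. Of the 12 tested of 15 listed, ILF2 fell in shZMYND8 (by 0.42 ± 0.12, adjusted p = 0.0487), and DICER1 (by 0.69 ± 0.13, adjusted p = 0.0225) and STRBP (by 0.47 ± 0.12, adjusted p = 0.0476) fell in shJARID1D, that is 1 of 12 and 2 of 12 where 7.34% and 2.79% of all genes tested were called lower. None of the 12 was called higher against shLuciferase by edgeR or DESeq2 or at an unadjusted p under 0.05. DICER1, the nuclease that makes small RNAs from double-stranded precursors, stood at 386 and 339 CPM in shLuciferase, 341 and 407 CPM in shZMYND8 and 213 and 235 CPM in shJARID1D. Its call in shJARID1D was lost without either library of that knockdown, at adjusted p of 0.192 and 0.099. The call of ILF2 was lost without any one library other than shLuciferase replicate 1 (0.0786 to 0.228), and that of STRBP without either library of either knockdown (0.0883 to 0.324). The medians of the 12 were -0.12 in shZMYND8 and -0.16 in shJARID1D. ADARB1, the gene of a second editing enzyme, was not called against shLuciferase and was higher in shZMYND8 than in shJARID1D (0.68, adjusted p = 0.0323), a call lost without any one of the 4 knockdown libraries (0.131 to 0.176).

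The other eIF2 kinases gave no call. Among 16 genes of the eIF2 kinases, the eIF2 subunits, its exchange factor and the branch below it, none was called by edgeR in either knockdown. At an unadjusted p under 0.05 there were 2 in shZMYND8 and 3 in shJARID1D, and DESeq2 called 1 in each. EIF2AK1, the gene of the heme-regulated kinase, differed by 0.00 and -0.03, EIF2AK3 (PERK) by 0.08 and 0.18 and EIF2AK4 (GCN2) by -0.27 and -0.33 in shZMYND8 and shJARID1D. ATF4, the transcription factor whose translation rises when eIF2 is phosphorylated, differed by 0.02 and -0.02 at the RNA level. The medians of the 16 genes were 0.01 and -0.02.

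Of 8 tested genes for DNA sensing and nucleic acid clearance, 2 rose in shZMYND8 and 1 in shJARID1D, with medians of -0.03 and 0.14. Over all genes tested, 8.89% and 2.96% were called higher. IFI16, a nuclear DNA sensor, rose in shZMYND8 (1.15 ± 0.34, adjusted p = 0.0483) and in shJARID1D (1.35 ± 0.34, adjusted p = 0.0497), both close to the threshold. DESeq2 called neither (0.16 and 0.118), and the first was lost without shZMYND8 replicate 1 (0.381) and without shLuciferase replicate 2 (0.136), the second also without that control (0.102) and without shJARID1D replicate 1 (0.253) or 2 (0.0981). SAMHD1, which limits the nucleotide pool, rose in shZMYND8 (0.83 ± 0.19, adjusted p = 0.0168, and 0.17 without shZMYND8 replicate 1). MB21D1 (cGAS), the enzyme that signals to the product of TMEM173, differed by -0.35 in shZMYND8 (adjusted p = 0.0714) and -0.13 in shJARID1D (adjusted p = 0.538). TREX1 (-0.75, adjusted p = 0.0246) and RNASEH2A (-0.55, adjusted p = 0.0306), nucleases that remove stray nucleic acid, were lower in shZMYND8 than in shJARID1D, and both calls were lost without any one of the 4 knockdown libraries (0.0552 to 0.221). UNC93B1, the chaperone that carries TLR3 to the endosome, stood at 35.2 and 38.6 CPM in shLuciferase, 77.2 and 58.5 CPM in shZMYND8 and 33.0 and 30.4 CPM in shJARID1D. It rose in shZMYND8 (0.88 ± 0.15, adjusted p = 0.0045, and 0.0595 without shZMYND8 replicate 1) and was 2.14-fold higher there than in shJARID1D (adjusted p = 0.00229).

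Among 6 tested IRF genes besides IRF3, IRF1 and IRF9 rose in both knockdowns along with IRF7. That is 3 of 6 in each, where 8.89% of all genes tested were called higher in shZMYND8 and 2.96% in shJARID1D. IRF9, the DNA-binding subunit of the factor that recognises the ISRE, stood at 24.7 and 17.1 CPM in shLuciferase, 61.8 and 41.9 CPM in shZMYND8 and 59.9 and 59.7 CPM in shJARID1D. It rose by 1.31 ± 0.21 in shZMYND8 (adjusted p = 0.0033) and by 1.52 ± 0.21 in shJARID1D (adjusted p = 0.00833). IRF1 rose by 1.25 ± 0.14 (adjusted p = 0.000755) and 0.65 ± 0.14 (adjusted p = 0.0297). IRF5 fell in shZMYND8, by 0.64 ± 0.17 (adjusted p = 0.0276), a call lost without either shZMYND8 library (0.196 and 0.105) or shLuciferase replicate 2 (0.0597). In shJARID1D the calls of IRF1 and IRF9 were lost without either library of that knockdown (0.2 and 0.122 for IRF1, 0.0662 and 0.0531 for IRF9). The medians of the 6 were 0.75 in shZMYND8 and 0.58 in shJARID1D.

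**Figure D5:**
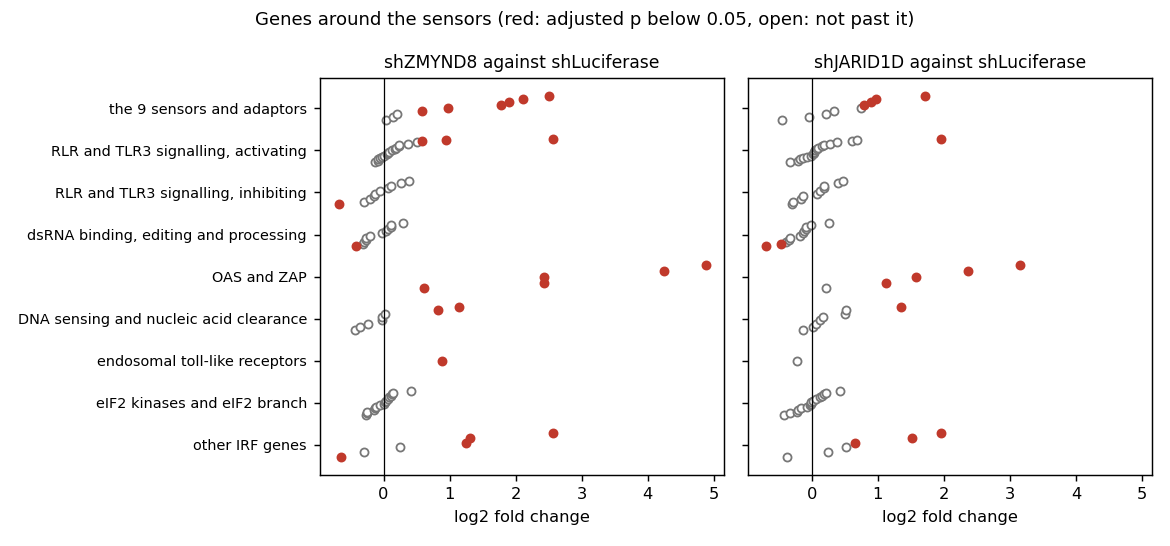
Log2 fold change (horizontal axis) of the 9 sensors and adaptors and of the tested genes in 8 lists around them (rows), in shZMYND8 (left panel) and shJARID1D (right panel) against shLuciferase; red points passed an adjusted p of 0.05. All 5 genes of the OAS and ZAP row are red on the left and 4 of them on the right, while the 16 genes of the eIF2 row are open in both panels.

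The interferon genes that the sensors act on were near the limit of detection. IFNB1, the gene of interferon beta, had 0 fragments in both shLuciferase libraries, 22 and 11 in shZMYND8 and 5 and 10 in shJARID1D. Against a floor of 3 fragments per control library it was at least 5.06-fold higher in shZMYND8, or at least 3.25-fold by replicate 2 alone. These limits allow for no counting error in shZMYND8. The edgeR test, which does not use this floor, gave IFNB1 a log2 fold change of 6.92 ± 1.37 (adjusted p = 0.0107). IFNL1, a type III interferon gene, had 4 and 0 fragments in shLuciferase, 32 and 17 in shZMYND8 and 2 and 3 in shJARID1D. It was called higher in shZMYND8 (adjusted p = 0.0224). Both IFNB1 and IFNL1 passed the filter on low counts only through knockdown libraries, where they are high. Their tests are therefore not independent of that rise. DESeq2 gave no adjusted p for either gene, so it made no decision on them. Without shZMYND8 replicate 1 both calls were lost (log2 fold change 6.34 for IFNB1 and 2.84 for IFNL1). That of IFNL1 was also lost without shZMYND8 replicate 2 (3.83) or shLuciferase replicate 2 (2.46), and with no filter on low counts (3.4, adjusted p = 0.0616). In shJARID1D no interferon gene was called by edgeR, and 1, IFNB1, had an unadjusted p under 0.05. Its log2 fold change there was 6.11 ± 1.52, which fell just short of the threshold (adjusted p = 0.0518). IFNL3 had too few fragments to be tested, at 0 and 0 in shLuciferase, 24 and 10 in shZMYND8 and 1 and 0 in shJARID1D, which puts shZMYND8 at least 5.23-fold above the same floor, or at least 2.95-fold by replicate 2 alone. IFNL2, with 0 and 0, 10 and 1, and 1 and 2 fragments, may share reads with IFNL3, its near copy. IFNE was not called, at 2 and 13 fragments in shLuciferase, 30 and 10 in shZMYND8 and 12 and 4 in shJARID1D. IFNK had at most 2 fragments in a library, IFNA1 at most 1, and IFNA2, IFNA5 and IFNA13 had 0 in all 6.

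Markers of other cell types were low, but some moved with the knockdowns. The summed level of 7 leukocyte markers ran from 36.7 to 43.0 CPM in shLuciferase, from 47.1 to 58.6 CPM in shZMYND8 and from 46.0 to 46.2 CPM in shJARID1D. CD3E was at 0 in all libraries and 3 of the 7 genes were tested. Most of this sum was CD68, at a mean of 43.5 CPM over the 6 libraries and not called. ITGAM, at a mean of 1.04 CPM, rose in shZMYND8 (1.33 ± 0.39, adjusted p = 0.0435) but was not called by DESeq2. The sum of 6 fibroblast markers ran from 1.41 to 2.26 CPM, from 5.74 to 6.05 CPM and from 2.36 to 3.68 CPM in the same groups. DCN was at 0 and 3 of the 6 were tested, of which COL1A1 rose in shZMYND8 (1.65 ± 0.42, adjusted p = 0.026). The 4 endothelial markers, none of which was tested, summed to between 0.468 and 1.16 CPM. The epithelial sum ran from 1320 to 1860 CPM in shLuciferase, from 1100 to 1220 CPM in shZMYND8 and from 963 to 1130 CPM in shJARID1D. Its genes did not move together: in shZMYND8 CDH1 rose (1.01, adjusted p = 0.013), KRT19 (-1.16, adjusted p = 0.00184) and EPCAM (-1.68, adjusted p = 0.000546) fell, and in shJARID1D KRT8 (-0.86, adjusted p = 0.0465) and KRT18 (-0.67, adjusted p = 0.0349) fell. The part of these genes in the differences between the sensors was not tested.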

How the data were processed

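RNA of DU145 cells was sequenced in 6 libraries, 2 per group, and groups were taken from the sample labels. What the authors deposited are expected counts, the fragments their software assigned to each gene (Cuffdiff, TopHat2 2.0.12, Bowtie 1.1.2 and edgeR 3.12.0 are named, with the build hg19, per the submitters' processing notes, without their roles). No source used here gives the annotation or the strandedness. Each deposited library carries a scaling: 1 fragment has a value of 0.8815 to 1.1602. Expressed in fragments, 84.0% to 84.9% of the values below 1000 were whole to within 0.05. A status mark deposited for each gene and library led to 60 genes not quantified in some library being left out, while 10 genes marked as failed were kept. The 18 variance columns were not used.

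The expected counts were rounded to whole numbers and fitted in R 4.3.3 by the quasi-likelihood test of edgeR 4.0.16 (TMM factors, filterByExpr), with all 6 libraries and the group as the only term. This left 15867 of 28443 genes and 3 residual degrees of freedom, and the common coefficient of biological variation was 12.28%. Factors lay between 0.966 and 1.057. Standard errors and 95% confidence intervals come from the fit, and the limit of 3 fragments covers counting error only. The nearest patterns used log2 CPM with a prior count of 2. The scripts were tested on simulated data. Tables and figures used Python 3.11.15.

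The 9 genes and the gene lists were chosen with earlier results of these data known. Named were all 9 genes, the targets, up to 4 called genes per list and comparison by smallest adjusted p, up to 2 uncalled genes per list by highest mean, the detected interferon genes, and the 3 nearest patterns of each receptor. TBK1, TICAM1, IKBKE, MB21D1, EIF2AK1, EIF2AK3 and EIF2AK4 lie outside that rule and were chosen for their roles after their values were seen. A few genes of the lists are not reported here, and the list counts and medians that would include them were taken without them. Gene names were matched to RefSeq (GRCh38.p14) for names, overlapping neighbours and promoter windows only. No genome of the build of the files was used.

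There were 16 alternatives, 15 planned and 1 added after the data were seen (the deposited scaling undone): 3 other scalings, 2 other filters, DESeq2 1.42.0, limma 3.58.1 (voom), a fit restricted to the groups compared, a block for the replicate number, and each library left out.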

Additional observations from a re-analysis of the deposited data

How the results depend on the processing

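In shZMYND8 against shLuciferase 6 of the 9 genes were called under every alternative except the loss of shZMYND8 replicate 1, which left 4. In shJARID1D against shLuciferase the number was 0 with no filter on low counts and 7 with the replicate block, against 4, and ran from 0 to 5 over the libraries left out. Between the knockdowns it was 2 with no filter and 5 with the block, against 4, and ran from 0 to 5 over the libraries left out. Genes called in all numbered 2574, 912 and 2490 in the 3 comparisons. With no filter they were 1805, 204 and 1560, in a fit of only the groups compared 1993, 449 and 4252, and with the replicate block 3699, 2073 and 3785. Over the libraries left out they ran from 642 to 3222, from 16 to 2145 and from 551 to 4191. The labels do not say whether a replicate number marks libraries made together, so the libraries were not treated as paired. Over all genes the differences between replicates 1 and 2 correlated at 0.092, 0.17 and 0.097 between pairs of groups. Replicate 1 was above replicate 2 in all 3 groups in DDX58, IFIH1, DHX58, TLR3, EIF2AK2, ADAR and TMEM173, so whether the numbers pair the libraries is not settled.

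The directions that changed sign belonged to genes without a call. IRF3 ran from -0.20 to 0.29 in shZMYND8 over the libraries left out, from -0.28 to 0.21 in shJARID1D (0.04 when scaled by library totals only) and from -0.01 to 0.18 between the knockdowns. EIF2AK2 ran from -0.08 to 0.43 and TMEM173 from -0.18 to 0.03 between the knockdowns, and KDM5D from -0.11 to 0.01 in shZMYND8. Of 432 values of the 9 genes under the alternatives, 378 kept direction and side of the threshold, 35 lost the call, 11 gained one and 8 changed sign. Unless the alternative itself removes samples or adds genes, the cause was not tested. With 2 libraries a group, a group left with 1 is assumed to vary like the others. Depth limits the interferon genes, with at most 32 fragments, and not the 9 sensors and adaptors.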
